A study of Homo sapiens with 12 samples.

Results

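Ribosomal protein pseudogenes that carried many ribosome footprints were described in HepG2 cells, a line derived from a human liver tumour. Members were processed pseudogenes, transcribed ones included, whose symbol starts with RPL or RPS and ends in P and a number, with a mean of at least 10 CPM (the count at a gene divided by the library total, times 1000000) over the 3 siControl RPF libraries. Of 1581 such pseudogenes at any level, 308 (19.5%) met this rule, among 58721 genes in the files. Since the siControl RPF level chose the members, that level is given as a description and not as a finding.

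Ribosome-protected fragments (RPF) and Input RNA were measured by ribosome profiling in cells transfected with siControl or with siIGF2BP3, an siRNA against the RNA-binding protein IGF2BP3, with 3 libraries in each of 4 groups. In both conditions, 2 days after transfection, the cells received 100 µg/mL cycloheximide for 4 min, lysates were digested with RNase I, and a gel slice of 28 to 30 nt was taken. The labels attach the same protocol to the Input libraries, so how Input RNA was turned into reads is not given in the sources used here. The labels do not say whether libraries came from separate cultures, so a p-value measures the spread between these libraries, which may be technical.

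Library totals ran from 11219750 to 14797573 counts in Input and from 13036423 to 31510601 in RPF. All 8 hepatocyte markers examined were at or above 119 CPM in every Input library, while the blood marker PTPRC was at 0, the fibroblast genes COL1A1 and COL1A2 stayed at or below 0.636 CPM and endothelial PECAM1 at or below 1.98 CPM. IGF2BP3 itself was at 127 to 133 CPM in siControl Input and 97.9 to 105 CPM in siIGF2BP3 Input (log2 fold change −0.39, edgeR adjusted p = 1.06e-05), and it fell by 1.59 on the log2 scale in RPF (edgeR adjusted p = 0.000301). Over all genes the siControl RPF replicates 2 and 3 differed by less than sampling noise. They were counted as 1 sample in each mean ± SD, so n = 2 there and n = 3 in the other groups. The tests kept these replicates as separate libraries, except where they are said to be summed. With them summed, IGF2BP3 fell by 1.58 in RPF (edgeR adjusted p = 0.00659). The siIGF2BP3 RPF replicate 1 stood apart from replicates 2 and 3 of its group. The counts of calls after knockdown and the members called in RPF and TE are given with and without it. Without it the log2 fold change of IGF2BP3 in RPF was −1.53 (edgeR adjusted p = 1.02e-07).

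The ribosome of the cytosol is built from a large and a small subunit, whose proteins are each encoded mainly by a single gene with introns. Processed pseudogenes arise when a spliced mRNA is copied back into DNA and inserted elsewhere in the genome, so they lack introns and most have lost an intact reading frame. Because ribosomal protein mRNAs are abundant, the human genome holds many such copies, and a fragment as short as a footprint can match the parent mRNA and several copies equally well.

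The sequences below show what a footprint-sized window of 29 bases can and cannot tell apart. They were read 5′ to 3′ from hg38 with GENCODE 44 coordinates. The first pairs come from the members with the highest RPF levels, and the capital marks the single base that differs, counted from 1 at the 5′ end of the window. RPS27A (chr2:55235494-55235522, plus strand, coding exon) and RPS27AP16 (chr16:61055500-61055528, minus strand) differ by T15C. The RPS27A form of this window was found in 2 places in the genome and the RPS27AP16 form in 5, all 5 of them members. RPL13 (chr16:89561653-89561681, plus strand, coding exon) and RPL13P12 (chr17:17383663-17383691, minus strand) differ by C15G, and each form was found in 1 place.
RPS27A: gtgtttatggcaagTcactttgacagaca
RPS27AP16: gtgtttatggcaagCcactttgacagaca
RPL13: gagtccctgcaggcCaacgtgcagcggct
RPL13P12: gagtccctgcaggcGaacgtgcagcggct

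A second kind of window spans an exon junction of the parent mRNA. There the genome holds the joined sequence at the pseudogene, while at the parent it is interrupted by an intron. Capitals mark the bases of the downstream exon. The RPL36A window (chrX:101391550-101391564 joined to chrX:101391755-101391768, plus strand, coding exons) was identical in RPL36AP37 (chr11:16974891-16974919, minus strand), and as an unbroken run it was found in the genome only there. The RPL22 window (chr1:6197652-6197666 joined to chr1:6193041-6193054, minus strand, coding exons) was identical in RPL22P1 (chr3:169483927-169483955, minus strand) and was found unbroken in 11 places.
RPL36A and RPL36AP37: ctctgtacgcccaggGAAAGCGGCGTTAT
RPL22 and RPL22P1: gatgctgccaattttGAGCAGTTTTTGCA

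Windows shared by many members show the other end of the range. The RPL13A coding window (chr19:49490261-49490289, plus strand) was found in 11 places and in 10 members, in a family of 24 pseudogenes of which 13 were members. The RPSA coding window (chr3:39412327-39412355, plus strand) was found in 22 places and in 17 ribosomal protein pseudogenes, 12 of them members, in a family of 72 pseudogenes of which 13 were members. Nothing is capitalised in these, since the copies counted were identical throughout.
RPL13A: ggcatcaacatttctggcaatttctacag
RPSA: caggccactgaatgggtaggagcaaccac

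The 308 members came from 69 of the 79 ribosomal protein genes examined. There were 189 members of large subunit families and 119 of small subunit families. Their median RPF levels in siIGF2BP3 were 23 and 22.9 CPM. RPL5, RPL13A and RPSA, which encode proteins of the large, the large and the small subunit, had 13 members each. RPL7A and RPS3A had 11 each, and RPS4X and RPS26 had 10 each. Of the members, 293 were annotated as processed and 15 as transcribed processed pseudogenes, and 296 had 1 exon. By the deposited exon coordinates, 153 members lay outside any other gene and 136 within an intron of one. An exon of another gene overlapped 6 members on the same strand and 13 on the opposite strand only.

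Just inside the rule, RPS3AP44, RPS26P11 and RPL29P15 had siControl RPF means of 10.1 CPM each. Just outside it, RPL7P15, RPS27P9 and RPL35AP34 had 9.99, 9.81 and 9.79 CPM. Applied to the siIGF2BP3 RPF libraries, the same rule gave 312 pseudogenes, of which 305 were members (99.0% of the members and 97.8% of the 312).

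Counts of ribosomal protein families divided differently between genes and pseudogenes in the 2 kinds of library. In the siIGF2BP3 RPF libraries, which did not enter the rule, all 1581 pseudogenes together held 36.7% ± 0.966 (SD, n = 3) of the counts assigned to the 79 genes and their pseudogenes, and the 308 members alone held 30.2% ± 0.742. In siIGF2BP3 Input the shares were 5.34% ± 0.12 and 5.09% ± 0.112 (SD, n = 3). The siControl libraries gave 37.3% ± 0.342 (n = 2) in RPF and 5.35% ± 0.0733 (n = 3) in Input for all pseudogenes. No RPF library lay below 35.6%, and no Input library above 5.47%. As a share of all counts in a library, the members took 1.05% to 1.13% in RPF and 0.305% to 0.338% in Input.

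**Figure D1:**
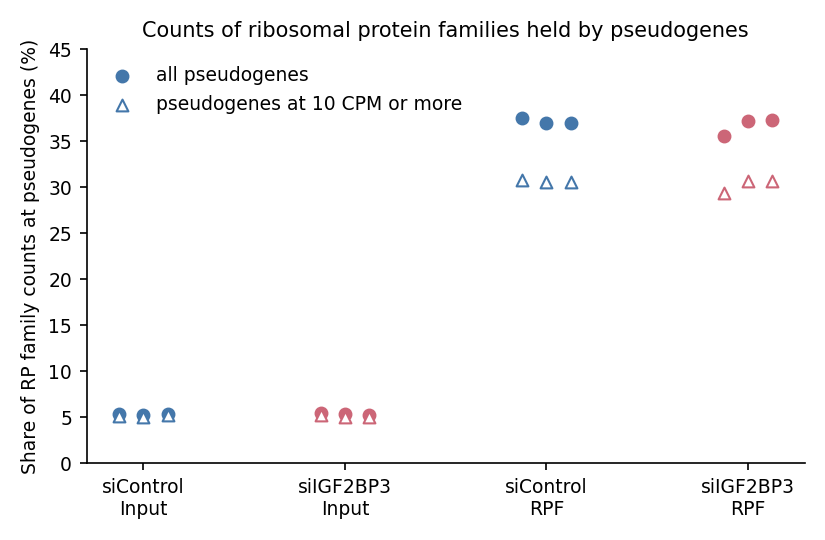
Share of ribosomal protein family counts (genes plus pseudogenes, %) that lay at pseudogenes, for each of the 12 libraries by group. Filled circles are all 1581 pseudogenes and open triangles the 308 at 10 CPM or more; every RPF library (35.6% to 37.5% for the circles) sits above every Input library (5.24% to 5.47%).

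Many of the deposited values were fractions. Dividing a read among the several places it fits gives such values, but whether this was done here is not given in the sources used here. A value more than 0.005 from a whole number was taken as fractional. Of the 308 members, 303 to 305 had a fractional value in each RPF library, 286 in all 6 and the remaining 22 in 5 of them. With a tolerance of 0.05 in place of 0.005 the number fractional in all 6 was 159. In Input, 257 to 270 members had a count, and 91.6% to 95.0% of those were fractional. Among the parent and other ribosomal protein genes, 77 to 79 of 79 were fractional in RPF and 69 to 72 in Input. Over all protein-coding genes with a count the shares were lower, at 48.9% to 54.3% in RPF and 26.7% to 28.0% in Input. No member was free of fractional values.

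The RPF level of most members was high beside a very low Input level. In siIGF2BP3 the median member had 23 CPM in RPF (range 9.6 to 189) and 0.167 CPM in Input. In siControl Input 233 of the 308 were below 1 CPM, and 34 were at 10 CPM or more. Among the former, 10 members had a count of 0 in all 6 Input libraries, which allows a level of up to 0.0398 CPM over these libraries, counting error only. Intervals of this kind treat reads as independent molecules, and no molecular identifiers are described.

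The edgeR comparison of RPF with Input within the siIGF2BP3 libraries used none of the libraries that chose the members, though RPF is the measure they were chosen by. All 308 passed the filter on low counts, while 85 did so in the Input libraries alone, so most entered only through the RPF group in which they were chosen to be high. The counts over the members are therefore a description and no evidence of a difference between the assays. There 297 were higher in RPF, beside 53.5% of all genes tested, and 6 were lower, beside 35.5% of all genes (89.0% of all genes in either direction). In 296 members every RPF library lay above every Input library, which was not counted over all genes. The ratio of RPF to Input CPM had a median of 131 over the members when an Input level at or below 3 counts over the 3 libraries (0.0846 CPM) was set to that floor, as it was for 102 members. The fitted log2 difference had a median of 7.22 over the members and of 0.49 over all genes tested. The 69 parent genes lay on the other side, with 10 higher and 54 lower in RPF and a median of −1.10.

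Other processed pseudogenes are given beside the members with the same limit. Among the 1273 ribosomal protein pseudogenes below the rule's level, 582 could be tested and 559 were higher in RPF, but 42 passed the filter in the Input libraries alone. The 1056 processed pseudogenes of other genes that reached 10 CPM in siControl RPF were picked by the same level as the members, and 201 of them passed in Input alone. Of these 1056, 1043 were higher in RPF, and their median ratio was 150 with 556 of them at or below the Input floor. No difference between these sets and the members was tested.

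**Figure D2:**
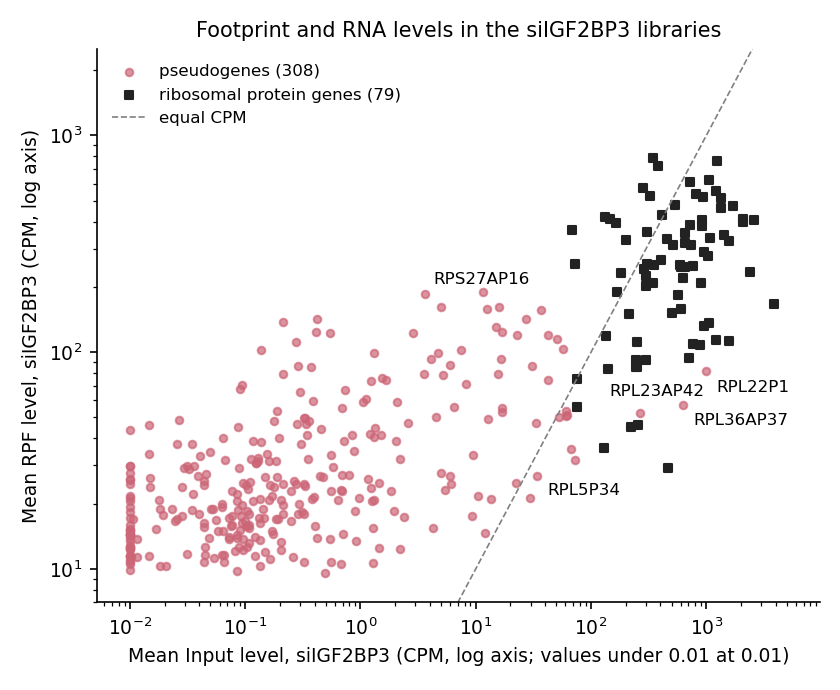
Mean RPF level against mean Input level in siIGF2BP3 (CPM, both axes logarithmic, Input values under 0.01 drawn at 0.01) for 308 pseudogenes (circles) and 79 ribosomal protein genes (squares), with the line of equal CPM. Most pseudogenes lie far above the line at Input levels under 1 CPM, while RPL22P1, RPL36AP37 and RPL23AP42 lie below it at 990, 627 and 268 CPM of Input.

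The 12 members with the highest siControl RPF level held 16.4% of the summed member level. RPS27AP16, a copy of RPS27A, which encodes ubiquitin fused to a small subunit protein, was the highest. It lies on chr16:61055399-61055964, minus strand, in no annotated gene. Its RPF level was 187, 181 and 183 CPM in siControl and 168, 196 and 191 CPM in siIGF2BP3. Its Input level was 2.78, 2.88 and 2.21 CPM in siControl and 3.4, 4.26 and 3.32 CPM in siIGF2BP3. The RPF and Input values did not overlap, and the RPF groups did. In siIGF2BP3 the log2 difference of RPF over Input was 5.79 (SE 0.11). The counts at RPS27AP16 were 63.7% of those at RPS27A in RPF and 0.381% in Input, as ratios of CPM with no correction for length.

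RPL13P12 (chr17:17383377-17384012, minus strand), a copy of the large subunit gene RPL13, shared its highest RPF library with its parent. It was at 164, 159 and 161 CPM in siControl RPF, against 218, 178 and 171 CPM in siIGF2BP3 RPF. The parent RPL13 was at 475, 471 and 469 CPM and at 615, 506 and 497 CPM in the same libraries. For both, siIGF2BP3 RPF replicate 1 was the highest of the 6. Neither the member (log2 fold change 0.25, edgeR adjusted p = 0.291) nor the parent (0.21, edgeR adjusted p = 0.332) passed the test in RPF.

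RPL14P1, RPS7P1, RPL4P4 and RPLP0P6 followed at siControl RPF means of 161, 153, 153 and 146 CPM. They are copies of genes for the large subunit, the small subunit, the large subunit and the ribosomal stalk base. RPS15AP1, RPL35P2, RPS7P11, RPL9P7, RPL24P4 and RPL13AP5 lay between 125 and 132 CPM. The siControl SDs of the 12 ran from 0.48 to 3.41 CPM. RPL13P12 and RPL14P1 differed by less than the larger of their SDs, as did RPS7P1 and RPL4P4, RPL35P2, RPS7P11 and RPL9P7 among themselves, and RPL24P4 and RPL13AP5. The lowest Input levels of the 12 were those of RPL35P2 (0.219 CPM in siControl), RPS15AP1 (0.39 CPM) and RPL24P4 (0.676 CPM), so the 12 did not share an Input level. Per kilobase of exon the order changed, with RPL35P2 highest at 355 CPM per kb in siControl RPF, then RPS15AP1 at 339 and RPS27AP16 at 324.

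**Figure D3:**
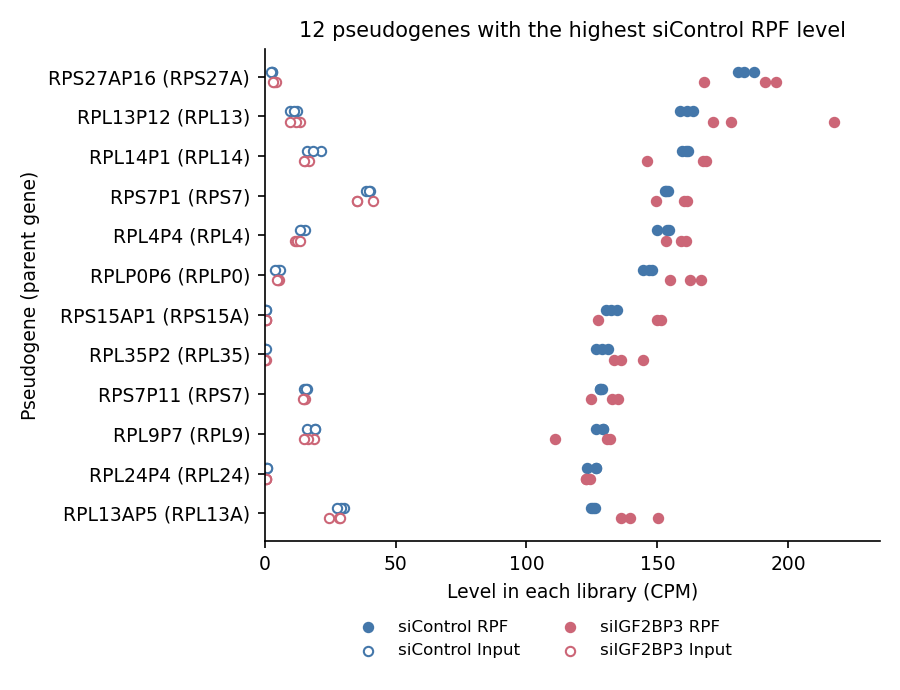
Level in each library (CPM) of the 12 members with the highest siControl RPF level, with the parent gene in brackets; filled points are RPF and open points Input, blue siControl and red siIGF2BP3, 3 libraries each. RPF points lie between 111 and 218 CPM and Input points at or below 41.2 CPM.

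The 6 members lower in RPF than in Input included the 3 with the highest Input level. RPL22P1, RPL36AP37 and RPL23AP42 together held 61.5% of the summed member Input level in siIGF2BP3 and 1.74% of the RPF level. RPL22P1 (chr3:169483671-169484080, minus strand, within an intron of MECOM) had Input levels of 1007, 1097 and 1106 CPM in siControl, against 999, 984 and 986 CPM in siIGF2BP3. Its RPF level was 80.3, 81.0 and 80.5 CPM in siControl and 74.5, 84.1 and 85.8 CPM in siIGF2BP3. Every Input library was above every RPF library, with a log2 difference of RPF over Input of −3.46 (SE 0.06, edgeR adjusted p = 4.71e-11) in siIGF2BP3. Its Input counts were 140% of those at the parent RPL22, a large subunit gene, and its RPF counts 86.8%.

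RPL36AP37 (chr11:16974693-16975013, minus strand, within an intron of PLEKHA7) was identical to the RPL36A mRNA in 100% of its windows. Its Input level was 620, 697 and 689 CPM in siControl, against 632, 634 and 616 CPM in siIGF2BP3. In RPF it was at 54.2, 57.2 and 56.5 CPM and at 48.9, 62.1 and 61.0 CPM. RPL36A, a large subunit gene, had fewer counts in both assays, with RPL36AP37 at 134% of its Input counts and 196% of its RPF counts in siIGF2BP3. It was the only member above its parent in RPF, and it and RPL22P1 were the only members above their parents in Input. The junction window printed above is 1 of those that this copy holds unbroken and that occur in the genome only there, which made up 7.85% of its windows.

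RPL23AP42 (chr3:161429127-161429597, minus strand) is a copy of the large subunit gene RPL23A and lies opposite an exon of LINC02067. In Input it held 284, 289 and 289 CPM in siControl, against 276, 262 and 264 CPM in siIGF2BP3. In RPF it was at 48.1, 48.9 and 48.1 CPM and at 54.2, 50.7 and 52.0 CPM. RPL23AP2, RPL39P3 and RPL41P1 were the other 3 members lower in RPF, with differences of −1.06, −0.76 and −0.33 on the log2 scale. The 5 members that did not pass the test were RPL17P6, RPL17P7, RPL5P34, RPS24P19 and RPL29P4, with differences between −0.18 and 0.06. Which setting of the counter was used for strand is not given in the sources used here, so reads of RPL23AP42 and of the gene opposite it cannot be told apart.

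At the lower end, the 10 members at 0 in all 6 Input libraries were RPS21P4, RPS29P5, RPS29P11, RPS29P12, RPL10P7, RPL18P13, RPL23P5, RPL23AP58, RPL27P7 and RPL38P3. Their siControl RPF means ran from 10.9 to 40.0 CPM, within the range of the other members. RPL38P2 (chr2:77788382-77793087, plus strand), a copy of the large subunit gene RPL38, combined a siControl RPF mean of 44.4 CPM with 0, 0.0676 and 0.0397 CPM in siControl Input. In siIGF2BP3 its RPF level was 547 times the Input floor of 3 counts over the group. It was also 1 of the 22 members with a whole value in 1 of the 6 RPF libraries, and 91.2% of its windows were found in 1 place in the genome.

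Members resembled their parents more than the other copies did. A median of 26.2% of the 29-base windows of a member were identical to the parent mRNA (quartiles 16% and 50.7%), against 2.01% for 1260 ribosomal protein pseudogenes outside the rule. The median identity to the parent coding sequence was 94.5% for members and 84.7% for the others. In the members 56.2% of windows were found in a single place in the genome, against 90.3% in the others. The parent reading frame was intact from start to stop in 56 members (18.2%) and in 16 of the 1260 others (1.27%). These are descriptions, since the set was chosen on a level and no test was made between the sets.

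Among the members, the share of identical windows went along with the RPF level. In the 40 members with under 10% identical windows the median siIGF2BP3 RPF level was 14.7 CPM and the median share of the parent's counts 5.03%. In the 30 with at least 75% the medians were 53.9 CPM and 64%. Spearman's rho over the 308 members was 0.59 with the RPF level and 0.81 with the share of the parent's counts. In Input rho was 0.62 with the level. These points share libraries, and members of 1 family share a parent, so no p is given. The level of the parent itself had a weaker relation to the member's RPF level (rho 0.12), as had the member's length (rho −0.04).

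**Figure D4:**
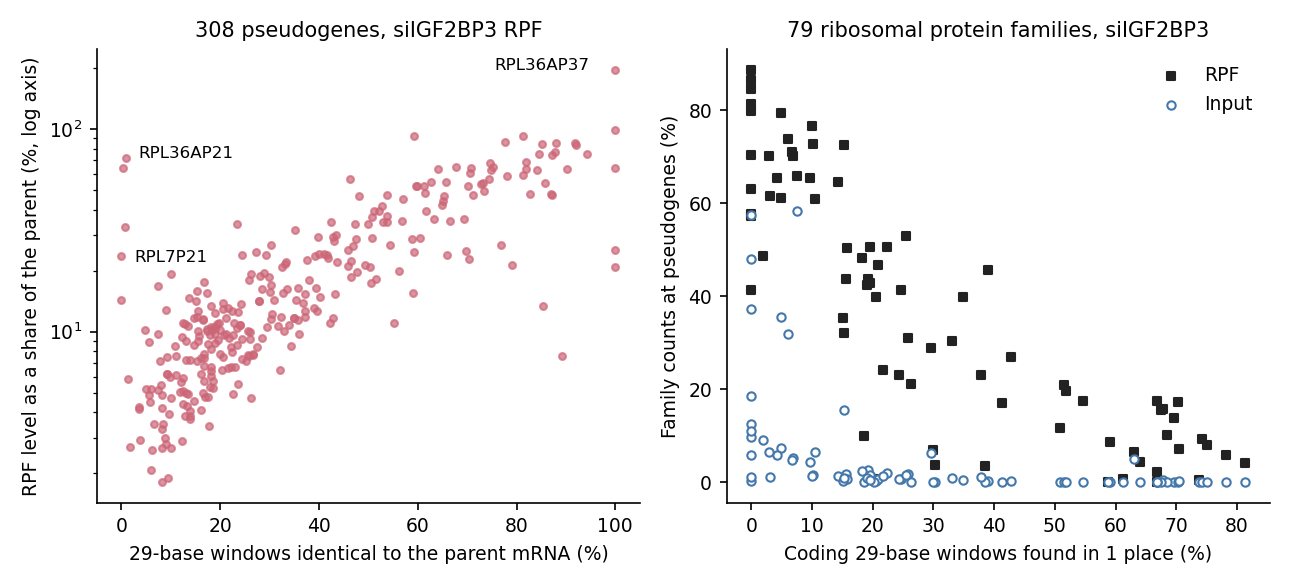
Left, RPF level of each of the 308 members as a share of its parent's counts (%, log axis) against the share of its 29-base windows identical to the parent mRNA (%). Right, share of family counts at pseudogenes (%) in RPF (squares) and Input (circles) against the share of coding 29-base windows of the parent found in 1 place (%), for 79 families in siIGF2BP3; the RPF share falls from 88.7% (RPL36A) to near 0 as the share of windows in 1 place rises.

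The 5 members identical to their parents in every window did not share 1 level. RPS28P7, a copy of a small subunit gene, had 99.3% of the RPF counts of RPS28 in siControl. Its siIGF2BP3 RPF values were 95.0, 67.0 and 61.9 CPM, and those of RPS28 were 95.3, 67.5 and 62.5 CPM, so replicate 1 was the highest of the 3 in both genes. RPL39P3 had 65.0% of its parent's counts, RPL41P1 26.0% and RPL41P5 21.3%, beside 195% for RPL36AP37.

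For 11 members the coding gene that shared most windows was not the gene their name points to. RPL7P21 (chr5:143332605-143333239, plus strand, within an intron of NR3C1) shared no window with RPL7 and 58.3% of its windows with RPL7L1, a paralogue of RPL7 with a role in the making of ribosomes. The RPL7L1 coding window below (chr6:42886269-42886297, plus strand) was identical in RPL7P21 (chr5:143333044-143333072, plus strand), and capitals mark the 7 bases at which the nearest stretch of the RPL7 coding sequence differs. It was found in 15 places in the genome, 11 of them in ribosomal protein pseudogenes and 1 of these a member.
RPL7L1 and RPL7P21: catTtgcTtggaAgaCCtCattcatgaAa

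Others of the 11 were RPL26P30, which shared 42.4% of its windows with RPL26L1 and none with RPL26, and RPL36AP21, RPL36AP45 and RPL36AP46, which shared under 1% with RPL36A and more with RPL36AL. RPL36AP21 had 77.2% of the RPF counts of RPL36A in siControl, although 0.979% of its windows were identical to it. RPS29P7 (chr1:65154480-65154650, plus strand, within an intron of AK4), a copy of a small subunit gene, had 1.4% of its windows identical to RPS29 and 88.1% found in 1 place. It was at 14.2, 14.9 and 13.8 CPM in siControl RPF and 13.9, 15.6 and 15.4 CPM in siIGF2BP3 RPF. In Input it had a count in 1 library only, at 0.176 CPM.

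Seen by family, 28 of the 79 genes had over 50% of their family's RPF counts at pseudogenes in siIGF2BP3, and 2 had so in Input. The share was higher in RPF than in Input in 77 of the 79 families. The median share was 39.8% in RPF and 0.692% in Input. RPL36A had the highest RPF share at 88.7%, then RPS26 at 86.5%, RPL7 at 84.5% and RPS3A at 81.4%. In each of these 4 families no coding window of the parent was found in 1 place, a feature of 10 of the 79 genes. RPL11 and RPS21, with 81.3% and 78.1% of coding windows in 1 place, had RPF shares of 4.07% and 5.92%. Over the 79 families Spearman's rho between the 2 shares was −0.86 in RPF. It is a description with no p, since all families come from the same libraries.

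No member came from 10 of the families. Among these, RPL21, a large subunit gene, had the most pseudogenes of all 79 families, 131. The highest of these reached 7.57 CPM in siControl RPF, 26 reached 1 CPM, and together they held 105 CPM. In RPL21 94.1% of coding windows were found in over 10 places, the highest share of the 79 genes.

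The parents' RPF level against Input depended on whether the counts at their pseudogenes were added to them. All counts at the pseudogenes were added, whether or not their reads also fit the parent. In the comparison of RPF with Input within siIGF2BP3, adding the counts of a family's pseudogenes to the parent changed the split of the 69 parents from 10 higher and 54 lower to 25 higher and 34 lower. The median over these parents moved from −1.10 to −0.16. RPL13A, for example, moved from −4.38 to −2.28, RPS26 from −1.69 to 1.06 and RPL7 from −1.26 to 1.27.

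Whether knockdown of IGF2BP3 changed the RNA level was tested on the Input libraries, which the rule did not use. In bulk libraries fewer cells of a kind and less RNA per cell cannot be told apart. Of the 308 members 85 passed the filter on low counts and 223 did not. One rose and 3 fell at an adjusted p under 0.05, beside 4.05% of all genes rising and 1.90% falling (5.96% in all). The median log2 fold change of the 85 was −0.12, of the 69 parents −0.10 and of all genes tested 0.00. Among the parents none rose and 13 fell, RPL14 the most at −0.26 (edgeR adjusted p = 0.00226). The 4 calls among members rested on a few libraries. There were none without siControl Input replicate 2, 7 without siControl Input replicate 1, 1 without siIGF2BP3 Input replicate 2 and 2 without siIGF2BP3 Input replicate 3.

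RPL5P34, a copy of RPL5, a large subunit gene whose protein binds the 5S rRNA, had Input levels of 42.9, 43.2 and 35.9 CPM in siControl, against 34.7, 30.8 and 35.8 CPM in siIGF2BP3. The groups did not overlap, but the nearest values were almost equal. It fell by 0.32 on the log2 scale (SE 0.08, edgeR adjusted p = 0.0131), and its parent RPL5 fell by 0.20 (edgeR adjusted p = 0.0186). RPL23AP42 fell by 0.15 (edgeR adjusted p = 0.0366) and RPL22P1 by 0.16 (edgeR adjusted p = 0.0374), at the Input values given above. RPL23A, the parent of the former, fell by 0.15 (edgeR adjusted p = 0.0403), and RPL22 had −0.14 (edgeR adjusted p = 0.0617). Scaling by library totals alone left 1 rise and 1 fall among the members in place of 1 and 3.

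The only member that rose in RNA was RPL17P50 (chr10:73005833-73006595, minus strand). Its Input level was 2.56, 2.82 and 2.16 CPM in siControl, against 4.75, 4.5 and 3.4 CPM in siIGF2BP3, with no overlap. Its log2 fold change was 0.69 (SE 0.20, edgeR adjusted p = 0.0412). It did not pass when any Input library other than siIGF2BP3 replicate 3 was left out. DESeq2 called no member higher in RNA, but it gave no value to set beside this one for RPL17P50. Whether the rise would pass there is therefore not known. The parent RPL17, a large subunit gene, had −0.09 (edgeR adjusted p = 0.298).

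In the RPF comparison, whose siControl libraries also chose the members, all 308 were tested. One member rose, beside 1.02% of all genes, and none fell, beside 0.649% (1.66% in all). In DESeq2 the count was also 1. At an unadjusted edgeR p under 0.05 there were 48 of the 308 members, beside 3251 of the 20192 genes tested. The median log2 fold change was 0.06 over the members, 0.10 over their parents and 0.01 over all genes tested, and no parent passed the test. Of the members 253 had a positive value, beside 10560 of the 20192 genes tested. In 70 members every siIGF2BP3 RPF library lay above every siControl RPF library, and in 2 every one lay below. This overlap was not counted over all genes, so it is no result about the members. Without siIGF2BP3 RPF replicate 1, 55 members rose (17.9%), beside 7.97% of all genes, none fell, beside 8.57%, and 36 of the 69 parents rose. Leaving out any other RPF library, or counting siControl replicates 2 and 3 as 1 summed library, left no member called.

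The member that rose in RPF was RPL7P21. Its RPF level was 15.3, 15.6 and 15.6 CPM in siControl, against 19.2, 22.2 and 23.8 CPM in siIGF2BP3, so the groups did not overlap. Its log2 fold change was 0.51 (SE 0.07, edgeR adjusted p = 0.0219). With siControl RPF replicates 2 and 3 summed it was 0.52 and did not pass (edgeR adjusted p = 0.124). Without siIGF2BP3 RPF replicate 1 it was 0.57 (edgeR adjusted p = 6.26e-05), and without any other RPF library it did not pass. RPL7, the parent by name, had 0.02 (edgeR adjusted p = 0.931). RPL7L1, the gene whose windows it shares, was at 42.9, 44.6 and 43.2 CPM in siControl RPF and 50.6, 59.4 and 63.0 CPM in siIGF2BP3 RPF, with a log2 fold change of 0.42 (SE 0.07, edgeR adjusted p = 0.0326). In both genes replicate 1 was the lowest of the 3 siIGF2BP3 RPF libraries. The part of shared reads in the change of RPL7P21 was not tested.

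**Figure D5:**
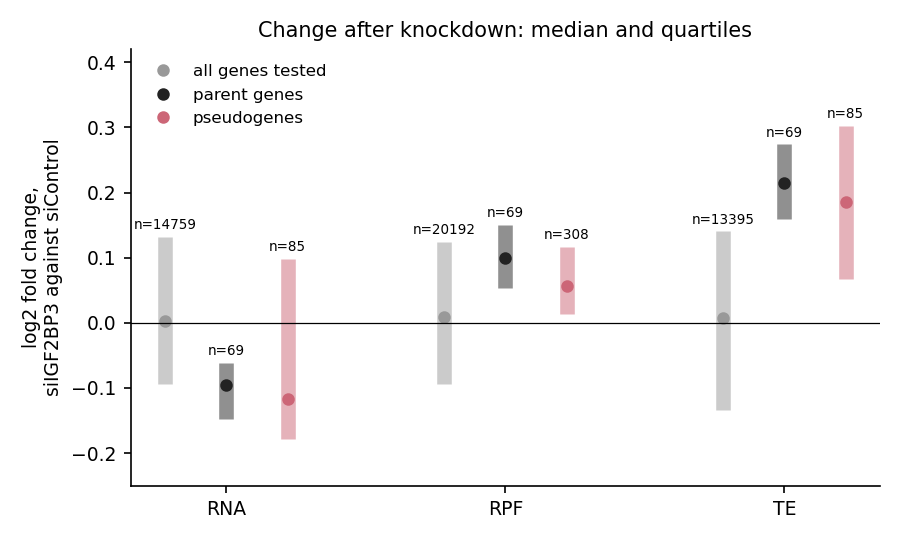
Log2 fold change of siIGF2BP3 against siControl in RNA, RPF and TE for all genes tested (grey), the 69 parent genes (black) and the members tested (red). Points are medians and bars the lower and upper quartiles, with the number of genes above each bar; members and parents have medians below 0 in RNA (−0.12 and −0.10) and above 0 in RPF (0.06 and 0.10) and TE (0.18 and 0.21).

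Translation efficiency (TE), the change in RPF beyond the change in Input, was tested in 1 fit of the 12 libraries, as the term by which the knockdown effect differed between RPF and Input. The siControl RPF libraries that chose the members are part of this fit, so its values for the members are a description. The 85 members that passed the filter in both assays had a median of 0.18 and the 69 parents a median of 0.21, beside 0.01 over all genes tested. Of the members 2 rose, beside 0.814% of all genes, and none fell, beside 1.36% (2.17% in all). They were RPL23AP42, with 0.28 (SE 0.07, edgeR adjusted p = 0.0387), and RPL6P19, with 0.40 (SE 0.10, edgeR adjusted p = 0.0495). Of the parents 10 rose, RPL12 the most at 0.34 (edgeR adjusted p = 0.007). With the replicate number as a block no member passed (edgeR adjusted p = 0.0576 for RPL23AP42 and 0.0793 for RPL6P19). Nor did any with siControl RPF replicates 2 and 3 summed (edgeR adjusted p = 0.0944 and 0.109), where 1 parent passed. Without siIGF2BP3 RPF replicate 1, 19 members rose, beside 4.53% of all genes, none fell, beside 5.48%, and 42 parents rose. In that fit RPL23AP42 had 0.25 (edgeR adjusted p = 0.00696) and RPL6P19 0.42 (edgeR adjusted p = 0.0121). Leaving out any other library left 0 or 1 member.

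RPL6P19 (chr7:137721985-137722846, plus strand) is a copy of RPL6, a large subunit gene. Its Input level was 9.96, 9.59 and 10.3 CPM in siControl, against 8.56, 7.91 and 8.11 CPM in siIGF2BP3, with no overlap. In RPF it was at 69.7, 69 and 67.9 CPM and at 67.5, 73.5 and 72.9 CPM, where the groups overlapped. RPL6 itself had a TE change of 0.23 (edgeR adjusted p = 0.0949). Since members and parents share windows, the change of a member and that of its parent may rest on some of the same reads, which was not tested.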

How the data were processed

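The deposited values were estimated counts per gene in each of 12 libraries. Per the submitters' processing notes and the methods, the authors made each estimated count with featureCounts from STAR alignments to hg38, after adapter removal by Cutadapt. Tool versions, strand settings and the treatment of reads with several places are not given in the sources used here. Pseudogene types and names came from GENCODE 44 by identifier without version (58207 of 58721 matched), and 304 of 308 members had the same coordinates there. The members, gene lists and tests were chosen with earlier results of these data known.

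Values were rounded and tested with edgeR 4.0.16 in R 4.3.3 (filterByExpr, TMM, robust quasi-likelihood, Benjamini-Hochberg, threshold 0.05), fitted over all genes: RNA on Input libraries, RPF on RPF libraries, TE as the interaction over all 12, and RPF against Input within siIGF2BP3. DESeq2 1.42.0 was an alternative. The scripts were tested on simulated data. CPM used library totals. Windows of 29 bases of each member were compared with the MANE Select mRNA of its parent and counted on both strands of hg38.

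Named genes were the 12 members with the highest siControl RPF level, 3 on either side of the limit, those called (up to 5 per direction), the 4 highest and 4 lowest in Input, up to 6 with the fewest fractional RPF values, those with the most and the fewest identical windows, and their parents. RPL21, RPL7L1, the families named for their share of counts at pseudogenes and the parents named for the largest change were chosen after their values were seen. The deviations of same-numbered siControl and siIGF2BP3 libraries from their group means correlated at 0.40, 0.35 and 0.15 in RPF (13076 genes) and at 0.03, −0.01 and −0.04 in Input (11019 genes). In RPF, siControl 2 correlated at 0.25 with siIGF2BP3 3, and siControl 3 at 0.21 with siIGF2BP3 2. These values did not settle a pairing by number, and the labels do not state one. The main fits therefore used no pairing, and the replicate number was a block only in an alternative setting. The mean chi-square per gene between siControl RPF replicates 2 and 3 was 0.941, against 2.09 and 2.80 for the other pairs of that group and 19.9 and 21.5 for siIGF2BP3 RPF replicate 1 against the others of its group. For siIGF2BP3 RPF replicates 2 and 3, kept as separate samples, it was 1.15. Over the 308 members alone it was 0.299 for siControl RPF replicates 2 and 3. There it was also low for siControl RPF replicates 1 and 2 (0.659), 1 and 3 (0.500) and siIGF2BP3 RPF replicates 2 and 3 (0.549). Counting the pair as 1 sample therefore rests on the value over all genes.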

Additional observations from a re-analysis of the deposited data

Results flagged for a closer look

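For 2 members the change after knockdown differed between RPF and Input by the interaction term of the fit. That fit includes the siControl RPF libraries that chose the members, so these calls are a description. The difference on the log2 scale was 0.28 for RPL23AP42 and 0.40 for RPL6P19. Neither passed with the replicate number as a block, or with siControl RPF replicates 2 and 3 summed. With 3 libraries in a group no search was made, gene by gene, for a library far from the others of its group. Whole libraries were compared by the mean chi-square per gene, by which siIGF2BP3 RPF replicate 1 stood apart.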

How the results depend on the processing

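In the comparison of RPF with Input within siIGF2BP3, 302 to 306 of 308 members and 59 to 68 of 69 parents were called over the settings run. The direction of the parents was not stable: with the counts of the pseudogenes added, 25 were higher and 34 lower in place of 10 and 54, and RPS26 (−1.69 to 1.06) and RPL7 (−1.26 to 1.27) changed sign. The counts of calls after knockdown were small and moved. Leaving out 1 library at a time gave 0 to 7 members in RNA, 0 to 55 in RPF and 0 to 19 in TE, and 4 to 30 parents in RNA, 0 to 36 in RPF and 1 to 42 in TE. In that comparison the same step gave 302 to 304 members and 64 to 66 parents. With DESeq2, TE had 4 members and 25 parents, RNA 20 parents and RPF 1 parent. With library totals alone, RNA had 2 members and 6 parents, and TE 0 members and 3 parents; this scaling moved the median of all genes by −0.14 in RPF against Input. Without a low-count filter, RNA had 8 members and 24 parents and TE 0 members and 4 parents. TE had 1 member with RLE factors and 1 with values not rounded. With siControl RPF replicates 2 and 3 summed, RPF had 0 members and TE 0 members and 1 parent. The replicate block left 0 members in TE and moved no other count by over 1.5 times. At 20 CPM in place of 10 there were 172 members, and 159 were fractional in all 6 RPF libraries at a tolerance of 0.05. No call of a named member changed direction in the settings run for it. The causes were not tested. Depth limits the RNA and TE comparisons to the 85 members with enough Input counts. Windows of 28 and 30 bases gave medians of 27.6% and 25% identical.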
